A study of Ovis aries with 16 samples.

Results

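FGF1 and AGGF1, a pair of secreted growth factors that act on blood vessels, were followed in the left ventricle of fetal sheep given losartan or angiotensin II. The 2 genes were found among the array's probes by gene name, systematic name or description, which gave 2 of the 1020 gene names on the array and 3 of its 15008 probes: 1 for FGF1 and 2 for AGGF1. Both genes were chosen by earlier estimates from these same 16 arrays, including the twin ratios of FGF1, so their levels and their ratios between twins are a description and carry no test. In this description FGF1 was higher than in the untreated twin in 4 of 4 fetuses given losartan, by 1.40-fold on average, and lower in 4 of 4 fetuses given angiotensin II, by 1.37-fold. AGGF1 went up in 2 and down in 2 twin sets under either treatment, and its average change was about 1 standard error or less.

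FGF1, acidic fibroblast growth factor, binds heparan sulfate and activates all the FGF receptors, tyrosine kinases that signal through the RAS, ERK and PI3K, AKT routes. It has no classical signal peptide, is made by cardiomyocytes among other cells, and stimulates growth of endothelial cells and fibroblasts. AGGF1, known earlier as VG5Q, is an angiogenic factor with a forkhead-associated and a G-patch domain that is released by endothelial cells and promotes their proliferation. Angiotensin II acts on vascular tone and on cell growth mainly through the AT1 receptor, and losartan blocks that receptor.

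The samples came from 8 twin pregnancies, with 1 treated and 1 untreated fetus in each, and each fetus was assayed on 1 array, which gave 4 groups of 4 arrays. In twin sets 1 to 4 the treated fetus received losartan, and in sets 5 to 8 it received angiotensin II. Catheters were placed on days 125 to 126 of gestation (term is 145 days), treatment lasted 5 days, and the infusion is called continuous in 1 place of the sample labels and daily in another. The tissue is given as free wall of the left ventricle in 1 place and as free wall and septum in another, and the labels do not say whether the untreated twins were catheterized. Breed, sex of the fetuses and dose were not given in the sources used here. The cardiomyocyte genes MYH7, MB and TPM1 were well above background on all 16 arrays.

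The probes are shown because each value below is the signal of 1 of these 60-base sequences, and because the AGGF1 values rest on 2 separate stretches of 1 transcript. They are printed 5′ to 3′ as in the array design, in lower case, with no part set off.
FGF1, probe A_70_P068081, from base 75 of a partial coding sequence, 45.0% G and C: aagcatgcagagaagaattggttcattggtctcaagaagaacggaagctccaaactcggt
AGGF1, probe A_70_P056091, from base 674 of a partial coding sequence, 38.3% G and C: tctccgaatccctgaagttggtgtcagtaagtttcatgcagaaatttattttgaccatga
AGGF1, probe A_70_P056092, from base 579 of the same sequence, 38.3% G and C: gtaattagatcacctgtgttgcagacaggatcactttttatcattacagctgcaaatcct
The 2 AGGF1 probes do not overlap and leave 35 bases between them. The array lists AGGF1 as LOC100037685, which the reference gene table names AGGF1. Each probe was spotted once on an array, so there was no technical repeat within an array.

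All 3 probes were well above background on 16 of 16 arrays, and none was saturated. The FGF1 spot was 76.2 to 156 times as bright as its local background, the AGGF1 probe from base 674 was 35.8 to 73.3 times as bright, and the probe from base 579 was 18.2 to 39.7 times as bright. Levels below are log2 processed signals minus the log2 of the 75th percentile of the array, so that 0 is the 75th percentile and a difference of 1 is a doubling. The number of arrays limits the precision of every value.

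FGF1 in the losartan arm was measured at 1.42, 1.75, 1.60 and 1.64 in the untreated twins of sets 1 to 4. In their losartan twins it was 1.74, 2.37, 2.07 and 2.16, in the same order. Each treated fetus stood above its own twin, while the ranges of the groups met at their edge: the lowest losartan value, in set 1, lay just under the highest untreated value, in set 2. The log2 ratios of treated over untreated twin were 0.32, 0.61, 0.47 and 0.52, which are increases of 25.2%, 52.9%, 38.1% and 43.4%. Their mean was 0.48 ± 0.12 (SD, n = 4), and the limma estimate with the twin set as a block was 0.48 (SE 0.11).

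FGF1 in the angiotensin II arm was measured at 1.82, 2.00, 1.60 and 2.21 in the untreated twins of sets 5 to 8. In their angiotensin II twins it was 1.29, 1.28, 1.27 and 1.99. The treated values of sets 5, 6 and 7 were nearly the same and lay below all 4 untreated ones, whereas in set 8 each twin was the highest of its group, and the treated one lay within the untreated range. The log2 ratios were -0.52, -0.73, -0.34 and -0.22, which are changes of -30.4%, -39.5%, -20.8% and -14.0%. Their mean was -0.45 ± 0.22 (SD, n = 4), and the limma estimate was -0.45 (SE 0.11).

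**Figure D1:**
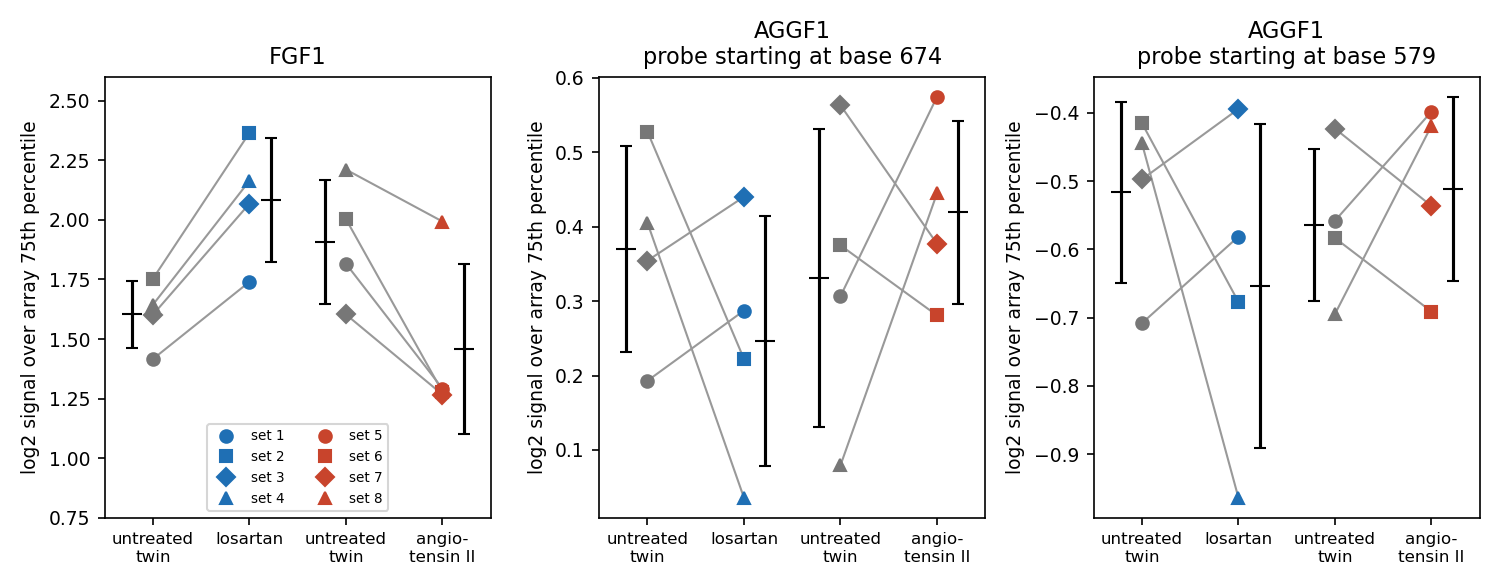
Levels of the 3 probes on each array, as log2 signal over the 75th percentile of the array, with a panel for each probe and its own vertical scale. Grey points are untreated twins, blue points losartan and red points angiotensin II, lines join twins, and the black bars are the mean ± SD of 4 arrays. The 4 FGF1 lines rise to losartan and the 4 others fall to angiotensin II, while the AGGF1 lines cross.

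The direction of FGF1 was compared with that of all probes as background. Of the 8965 tested probes with a value in every twin set, 10.5% were higher in 4 of 4 sets with losartan and 11.0% were lower in 4 of 4 sets with angiotensin II. FGF1 was among the 2.71% of these probes (243) that were both, and since the gene was chosen with these values known nothing is read from that share. At a limma adjusted p under 0.05 losartan gave 109 passing probes of 8970 (1.22%), and 0 passed with angiotensin II (0.0%; 938 had an unadjusted p under 0.05). For the difference between the effects, 148 probes passed (1.65%). At an unadjusted p under 0.05 the shares of all tested probes were 12.3% with losartan, 10.5% with angiotensin II and 20.9% in the difference.

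The distance between the effects of the treatments on FGF1 was -0.93 (SE 0.15) on the log2 scale, angiotensin II minus losartan, a 1.91-fold difference. It has parts from the treated and from the untreated fetuses: the mean of the angiotensin II group lay 0.63 below that of the losartan group, and the untreated twins of the angiotensin II arm lay 0.30 above those of the losartan arm. The untreated values are 1 side of the twin ratios by which FGF1 was chosen, so this gap (SE 0.15) is also a description with no test. Over all probes, 0 of 8970 passed in limma between the untreated twins of the arms (0.0%; 299 had an unadjusted p under 0.05).

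Ordered by group, FGF1 was highest with losartan (2.08 ± 0.26), followed by the untreated twins of the angiotensin II arm (1.91 ± 0.26), the untreated twins of the losartan arm (1.60 ± 0.14) and angiotensin II (1.46 ± 0.36; all mean ± SD, n = 4). The steps between neighbours were 0.18, 0.30 and 0.15. The first was smaller than the SD of both neighbours, the second was larger than both, and the third fell between the 2 SDs. The ranges of all 3 pairs of neighbours overlapped, and none of these pairs of groups holds twins of the same sets.

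Losartan and untreated fetuses were not spread evenly over the slides. The 16 arrays lay on 2 slides, where slide 1 held 1 of the 4 losartan fetuses and 3 of their untreated twins, and slide 2 held 3 and 1. FGF1 averaged 1.61 ± 0.30 on slide 1 and 1.91 ± 0.35 on slide 2 (SD, n = 8). Where the twins shared a slide the FGF1 ratios were 0.61 in set 2 and 0.47 in set 3 with losartan, and -0.73 in set 6 and -0.22 in set 8 with angiotensin II. A fit that also blocked on the slide gave estimates of 0.47 (SE 0.13) and -0.45 (SE 0.11). Within slide 1, without the twin pairing, they were 0.51 (SE 0.18) and -0.52 (SE 0.16), and within slide 2 they were 0.34 (SE 0.34) and -0.38 (SE 0.30). Each losartan estimate within a slide sets a single array against 3, and its SE comes from the groups with several arrays, whose spread the single array is assumed to share. The FGF1 estimates had the same sign in each of these fits, and the SE on slide 2 was about as large as the losartan estimate.

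On the first principal component 3 arrays stood apart: the untreated twin of set 2 and the angiotensin II twins of sets 7 and 8. All 3 were on slide 2, where they are the only untreated array of the losartan arm and both angiotensin II arrays, and they also had the brightest corner control spots (log2 signal 17.2 to 17.7, against 14.4 to 15.4 on the other 13). FGF1 on these arrays was 1.75, 1.27 and 1.99, the highest of its group, the lowest and the highest. Without twin sets 2, 7 and 8 the FGF1 estimate was 0.44 (SE 0.11) with losartan and -0.62 (SE 0.13) with angiotensin II.

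AGGF1 in the losartan arm, by the probe from base 674, was measured at 0.19, 0.53, 0.35 and 0.41 in the untreated twins of sets 1 to 4 and at 0.29, 0.22, 0.44 and 0.036 in their losartan twins. The treated fetus lay above its twin in 2 sets and below it in 2, and the groups overlapped over most of their range. The log2 ratios were 0.094, -0.31, 0.086 and -0.37, with a mean of -0.12 ± 0.25 (SD, n = 4) and a limma estimate of -0.12 (SE 0.13).

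AGGF1 in the angiotensin II arm was measured at 0.31, 0.37, 0.56 and 0.079 in the untreated twins of sets 5 to 8 and at 0.57, 0.28, 0.38 and 0.44 in the treated twins. The groups again overlapped, with the highest gain in set 8, whose untreated twin was the lowest of the 16 arrays but 1. The log2 ratios were 0.27, -0.094, -0.19 and 0.37, with a mean of 0.088 ± 0.27 (SD, n = 4) and a limma estimate of 0.088 (SE 0.13).

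The second AGGF1 probe, from base 579, gave the same sign as the first in 8 of 8 twin sets. Its ratios were 0.13, -0.26, 0.10 and -0.52 with losartan and 0.16, -0.11, -0.11 and 0.28 with angiotensin II. The largest gap between the probes in a twin set was 0.15 and the median gap 0.058, both well under the spread of the ratios between sets. As a description, the probes correlated at r = 0.953 over the 8 twin ratios and at r = 0.916 over the 16 arrays, points that share the array and its scaling factor. The up and down pattern of AGGF1 over the sets therefore appeared in both stretches of the transcript.

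The estimates of the probe from base 579 were -0.14 (SE 0.13) with losartan and 0.054 (SE 0.13) with angiotensin II. For the difference between the treatments the probes gave 0.21 and 0.19 (SE 0.19 each). Ordered by group, the means of the probe from base 674 ran from angiotensin II (0.42 ± 0.12) through the untreated twins of the losartan arm (0.37 ± 0.14) and of the angiotensin II arm (0.33 ± 0.20) to losartan (0.25 ± 0.17), with each step smaller than the SD of either neighbour. The order was the same for the probe from base 579. The log2 differences between the untreated twins, angiotensin II arm minus losartan arm, were -0.039 (SE 0.13) and -0.049 (SE 0.11).

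Within each slide the AGGF1 estimates (probe from base 674) differed in sign: 0.12 (SE 0.17) on slide 1 and -0.35 (SE 0.18) on slide 2 with losartan, and -0.041 (SE 0.15) and 0.22 (SE 0.15) with angiotensin II. The losartan estimates here again set a single array against 3 on each slide, so no difference between the slides is read from them. With a block for the slide too the losartan estimate was -0.043 (SE 0.15). FGF1 and AGGF1 did not run in parallel: their ratios correlated at r = -0.406 over the 8 twin sets for the first AGGF1 probe and at r = -0.379 for the second, given as a description.

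**Figure D2:**
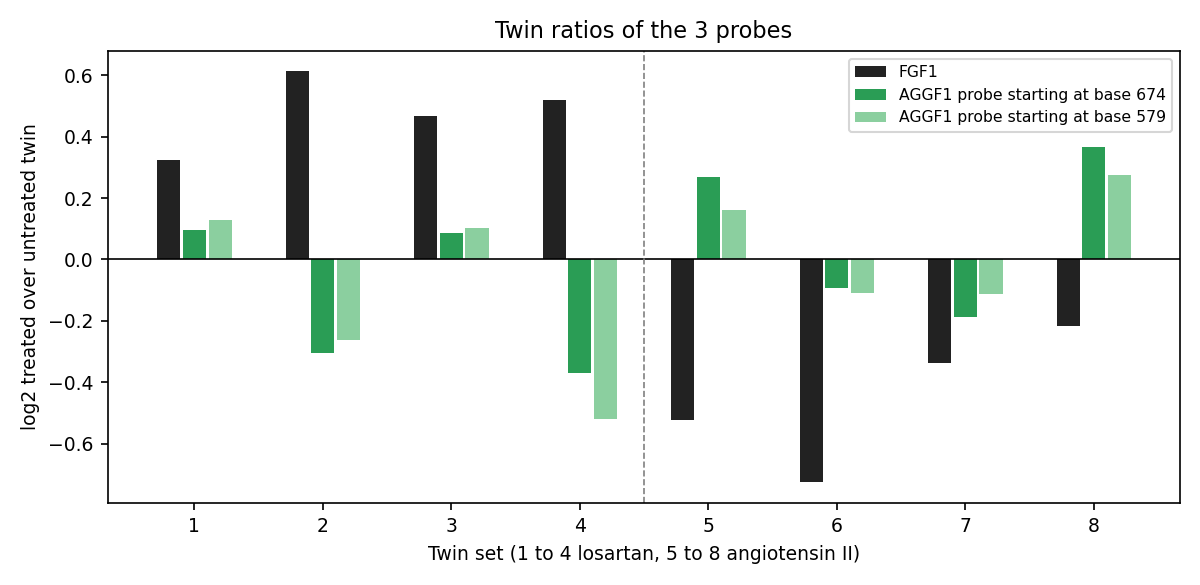
Log2 ratio of the treated over the untreated twin for each probe in each of the 8 twin sets. The FGF1 bars are above 0 in sets 1 to 4 and below 0 in sets 5 to 8, and the 2 AGGF1 probes share their sign in every set but change it from set to set.

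Of the other FGF ligands on the array under a name, FGF2, FGF7 and FGF18 were tested and FGF10 was not well above background on any array. None of the 3 passed in limma with losartan, with angiotensin II or in the difference. FGF7, the keratinocyte growth factor made by mesenchymal cells, had the pattern closest to FGF1 among them. Its ratios were 0.38, 0.60, 0.39 and 0.25 with losartan and -0.050, 0.062, -0.44 and -0.49 with angiotensin II, so it was higher in 4 of 4 sets and lower in 3 of 4. The estimates were 0.40 (SE 0.12, limma adjusted p = 0.187) and -0.23 (SE 0.12, adjusted p = 0.495), and that of the difference was -0.63 (SE 0.17, adjusted p = 0.102). The difference passed in 3 of 22 alternatives. With the slide as a further block it was -0.73 (limma adjusted p = 0.0473), beside 427 of 8970 probes that passed. In the authors' deposited values it was -0.55 (limma adjusted p = 0.0180), beside 1734 that passed. Within slide 2, which holds 1 untreated array of the losartan arm, it was -1.01, and nothing is read from that fit. All 4 FGF7 probes had estimates above 0 with losartan (0.30 to 0.48) and below 0 with angiotensin II (-0.39 to -0.16).

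FGF18, a ligand best known from skeletal and lung development, had levels from -3.10 to -0.92. With losartan its ratios were -1.24, -1.16, -0.18 and -0.95, below 0 in all 4 sets, and the estimate of -0.88 (SE 0.19) missed the threshold (limma adjusted p = 0.0620). With angiotensin II the ratios lay on both sides of 0 (-0.40 to 0.43, estimate 0.020, SE 0.19). FGF2, basic fibroblast growth factor, had the opposite sign to FGF1 in 4 of 4 sets with angiotensin II. Its ratios there were 0.34, 0.18, 0.15 and 0.85 (estimate 0.38, SE 0.17, limma adjusted p = 0.477), and with losartan they ranged from -0.55 to 0.40 (estimate -0.11, SE 0.17). The FGF ligands thus did not share 1 direction under either treatment. The shares of all probes below 0 in 4 of 4 sets with losartan, or above 0 in 4 of 4 with angiotensin II, were not counted.

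Of the FGF receptors, FGFR1 was tested, and FGFR2 and FGFR3 were not well above background on any array. FGFR1, the main FGF receptor of cardiomyocytes, was itself near background (13 of 16 arrays well above it). Its estimates were -0.16 (SE 0.27) with losartan and 0.28 (SE 0.27) with angiotensin II, with ratios of -0.65 to 0.18 and -0.94 to 0.90. Within slide 2, which holds 1 untreated array of the losartan arm, the difference of the FGFR1 effects was 1.37, and nothing is read from that fit.

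Genes that act below the FGF receptors were few on this array: 5 of a list of 33 were named and tested, and 0 of them passed in limma (unadjusted p under 0.05 for 2 with losartan, 1 with angiotensin II and 3 in the difference, beside 12.3%, 10.5% and 20.9% of all tested probes). FOS, an immediate early transcription factor of the ERK route, was lower in 3 of 4 sets with losartan (-0.83, 0.012, -1.46 and -0.99) and higher in 4 of 4 with angiotensin II (0.90, 0.97, 0.21 and 0.19). This is the reverse of the signs of FGF1 in 7 of 8 sets, and the share of all probes with such signs was not counted. The FOS estimate with losartan was -0.82 (SE 0.22, limma adjusted p = 0.158). It passed the threshold in 3 of 23 alternatives, 1 of them without set 2 (-1.10, adjusted p = 0.0331). The difference of the FOS effects was 1.38 (SE 0.32, limma adjusted p = 0.0637), and it passed in 5 alternatives, 1 of them without set 2 (1.66, adjusted p = 0.0164). EGR1, another immediate early factor, had estimates of 0.23 (SE 0.12) with losartan and -0.26 (SE 0.12) with angiotensin II. It was higher in 4 of 4 sets with losartan and lower in 3 of 4 with angiotensin II, the signs of FGF1, so FOS and EGR1 went opposite ways. AKT1, the kinase below PI3K, had -0.35 (SE 0.16) and 0.25 (SE 0.16). SPRY4, a feedback inhibitor of receptor tyrosine kinases that was well above background on 11 of 16 arrays, had 0.36 (SE 0.33) and -0.61 (SE 0.33). The limma adjusted p of these 3 genes lay between 0.161 and 0.699 over the 3 contrasts. Within slide 2 the SPRY4 estimates were 1.12 with losartan, -1.27 with angiotensin II and -2.39 in the difference. That slide holds 1 untreated array of the losartan arm and SPRY4 was near background, so nothing is read from them. AKT1 passed in the difference in 2 of 22 alternatives.

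Angiogenic factors besides AGGF1 were represented by 9 tested genes of a list of 38, and none of the 9 passed in limma (unadjusted p under 0.05 for 0 with losartan, 0 with angiotensin II and 1 in the difference, beside the same shares of all probes). VEGFA, the main vascular endothelial growth factor, had ratios of 0.33, -0.67, 0.43 and 0.99 with losartan (estimate 0.27, SE 0.26) and 0.49, -0.18, 0.71 and 1.16 with angiotensin II (0.55, SE 0.26, limma adjusted p = 0.482). It was higher in 3 of 4 sets under each treatment. HIF1A, the oxygen-regulated transcription factor, had estimates of -0.25 (SE 0.13) and 0.21 (SE 0.13), and the difference of 0.46 did not pass (limma adjusted p = 0.212). KDR, the main VEGF receptor of endothelium, had -0.34 (SE 0.20) and 0.11 (SE 0.20).

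ANGPT2, which opposes ANGPT1 at the TEK receptor, had -0.0081 (SE 0.15) with losartan and -0.26 (SE 0.15) with angiotensin II. CXCR4, a chemokine receptor, had -0.33 and -0.30 (SE 0.29 each), MET, the receptor of hepatocyte growth factor, had -0.022 and -0.23 (SE 0.22 each), and NRP1, a VEGF co-receptor, had 0.092 and -0.043 (SE 0.11 each). Of the 21 genes of this list on the array, 11 were too dim to test, among them FLT1, TEK, TIE1 and ANGPT1. Over all 18 tested genes of the 4 lists without the members, 7 had estimates above 0 with losartan (median -0.030) and 10 with angiotensin II (median 0.018). Over all tested probes 51.6% and 45.4% of estimates were above 0, with medians of 0.0071 and -0.026.

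**Figure D3:**
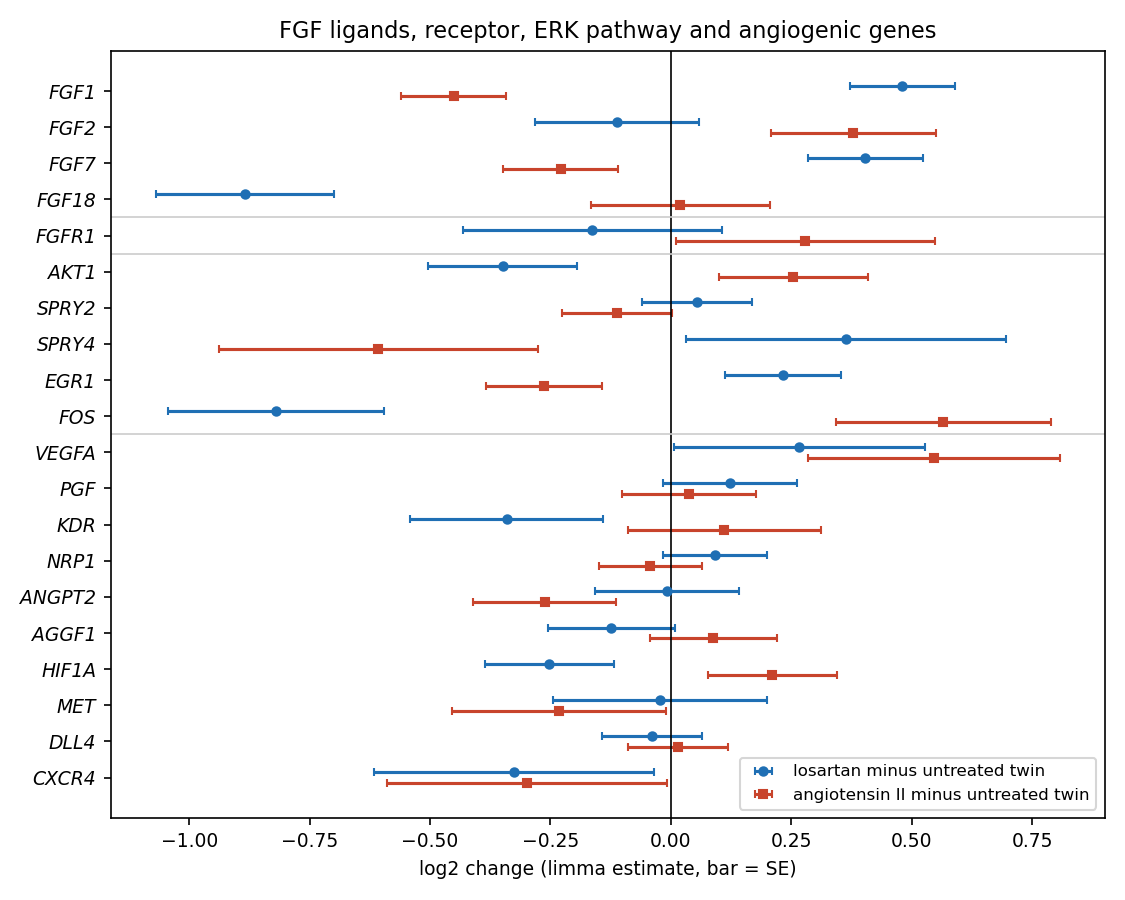
Estimated log2 change with losartan (blue circles) and angiotensin II (red squares) against the untreated twins for FGF1, AGGF1 and the 18 other tested genes of the FGF and angiogenesis lists, with bars of 1 SE. FGF1 and FGF7 lie to the right with losartan and to the left with angiotensin II, as do EGR1, SPRY2, SPRY4 and NRP1. AGGF1 lies near 0 in both, and none of the other 18 genes passed in limma.

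Named genes like FGF1 were sought among 520 by the correlation of the 8 twin ratios, as a description. Among the most like were MYC, a transcription factor of cell growth (r = 0.980 over the 8 twin ratios and 0.871 over the 16 arrays), and PLIN2, a lipid droplet coat protein (0.917 and 0.359). The least like it were INHBA, the activin beta A subunit (r = -0.979 and -0.850), and IGFBP2, which binds insulin-like growth factors in blood and tissue (-0.954 and -0.838). The FGF1 ratios fall into 1 cluster for each arm. A gene whose ratios differ between the arms by more than their spread within an arm thus comes out with a high r of either sign.

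These genes were picked by the same twin ratios that are estimated here, so their calls are no support for FGF1. With losartan MYC rose by 0.65 (SE 0.12, limma adjusted p = 0.0323), INHBA fell by 1.23 (SE 0.11, adjusted p = 0.00142) and IGFBP2 fell by 0.82 (SE 0.14, adjusted p = 0.0261). PLIN2 (0.13, SE 0.088, adjusted p = 0.580) did not pass. INHBA passed with losartan in 20 of 23 alternatives, and MYC and IGFBP2 in 10 of 23 each. Leaving out any 1 of twin sets 1 to 4 ended both of those calls (limma adjusted p = 0.0891 to 0.183 for MYC and 0.0563 to 0.154 for IGFBP2), and leaving out set 5 or 7 ended that of MYC (0.0560 and 0.0505). With angiotensin II none of these 4 passed, and their estimates were -0.18 for MYC, -0.27 for PLIN2, 0.50 for INHBA and 0.40 for IGFBP2 (limma adjusted p = 0.438 to 0.541). PLIN2 was, like FGF1, higher in 4 of 4 sets with losartan and lower in 4 of 4 with angiotensin II.

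**Figure D4:**
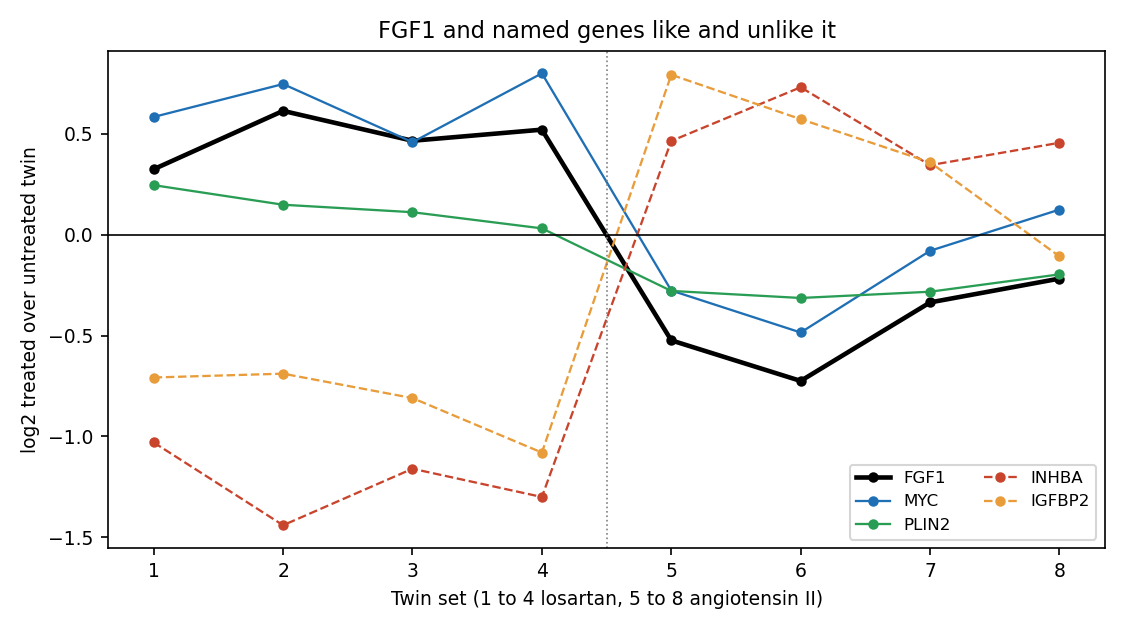
Log2 ratio of the treated over the untreated twin in each twin set for FGF1 (thick black line), MYC and PLIN2, among the highest in correlation to it (solid), and the 2 genes with the lowest (dashed). INHBA lies below 0 in sets 1 to 4 and above 0 in sets 5 to 8, opposite to FGF1 in every set; the lines between sets only guide the eye, since sets have no order.

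For AGGF1 the most like of the 520 genes were IFNAR1, a chain of the type I interferon receptor (r = 0.885 over the 8 ratios and 0.579 over the 16 arrays), TNNC2, the fast skeletal troponin C (0.773 and 0.320), and PSIP1, a chromatin-binding protein (0.759 and 0.601). The least like were SCNN1B, a subunit of the epithelial sodium channel (-0.886 and -0.487), and LOC100037697, described as galanin receptor 1 (-0.875 and -0.748). None of these 5 passed in limma in the losartan, angiotensin II or difference contrast as reported. These genes were picked by the same twin ratios that are estimated here, so their calls are no support for AGGF1. In the authors' deposited values 1734 of 8970 probes passed in the difference. Among them were TNNC2 (2.44, limma adjusted p = 0.0463), PSIP1 (0.66, adjusted p = 0.0317) and LOC100037697 (-0.53, adjusted p = 0.0455). With losartan TNNC2 passed there (-2.17, limma adjusted p = 0.0455), beside 434 probes over the array. Within slide 2, which holds 1 untreated array of the losartan arm, the differences of the same 3 genes were 4.39, 1.46 and -1.19. With losartan TNNC2 had -4.13 and PSIP1 -0.96 there, and nothing is read from that fit.

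Markers of other cell types were read beside these values, and in bulk tissue fewer cells of a type and less RNA per cell cannot be told apart. HBB encodes beta globin and was the 1 erythroid marker of 7 that was measured. Its ratios were 0.47, -0.59, 3.30 and 1.42 with losartan and -1.42, -0.89, 0.15 and -1.70 with angiotensin II, and their sign matched that of FGF1 in 6 of 8 sets. Its levels ranged from -0.58 to 3.27 in untreated and 1.64 to 4.69 in losartan fetuses, and from 0.31 to 3.77 in untreated and -1.39 to 3.27 in angiotensin II fetuses. It did not pass in limma (estimates 1.15, SE 0.52, and -0.96, SE 0.52, adjusted p = 0.413 and 0.498). In the 2 sets where HBB went the other way, sets 2 and 7, the FGF1 ratios were 0.61 and -0.34.

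CNN1, a calponin of smooth muscle, moved against FGF1 in 8 of 8 sets. The share of all probes that did so was not counted, so nothing is read from that number. CNN1 fell with losartan by 1.42 (SE 0.25, limma adjusted p = 0.0248), and the difference of its effects was 2.51 (adjusted p = 0.00866). The losartan call held in 16 of 23 alternatives. It was lost without set 1, 3 or 4 (limma adjusted p = 0.116, 0.117 and 0.0845). The others that lost it were the slide as a block, the fit without the twin block and the fits within slide 1 and within slide 2. The other of the 2 measured smooth muscle markers (of 6), MYLK, had estimates of -0.36 and -0.20 (SE 0.47 each). It was higher in 1 of 4 sets and lower in 3 of 4 under each treatment. Signals of the 2 markers were summed before the log, so the sum mostly follows CNN1 (mean level 3.18, against 0.54 for MYLK). This log2 sum was 3.12 to 4.00 in untreated and 2.11 to 2.54 in losartan fetuses. In the other arm it was 2.53 to 4.25 in untreated and 4.26 to 4.90 in angiotensin II fetuses. The share of all probes whose groups separate in this way was not counted, so nothing is read from these gaps. The 4 measured fibroblast markers of 10 (COL1A2, COL3A1, DCN and VIM) all had estimates below 0 with losartan (median -0.36). None of the 4 passed with losartan (limma adjusted p = 0.110 to 0.794), and over all tested probes 51.6% of losartan estimates were above 0. Their summed signal mostly follows VIM (mean level 6.66, against 5.08 for DCN, -1.18 for COL3A1 and -2.75 for COL1A2). On the log2 scale the sum was 7.18 to 7.43 in untreated and 6.69 to 7.05 in losartan fetuses. In the angiotensin II arm it was 6.77 to 7.28 in untreated and 6.69 to 7.37 in treated fetuses. Here too the share of all probes with separate groups was not counted.

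The summed level of the 3 measured endothelial markers of 14 (PECAM1, KDR and ROBO4) overlapped between untreated and treated groups, taken without the pairing. It was 1.76 to 2.10 and 1.71 to 2.07 in the losartan arm, and 1.99 to 2.16 and 1.70 to 2.10 in the angiotensin II arm. This sum mostly follows PECAM1 (mean level 1.83, against -2.26 for KDR and -2.52 for ROBO4). With angiotensin II PECAM1 was lower in 4 of 4 sets (estimate -0.155, SE 0.125), as were 11.0% of all probes. ROBO4 was higher in 4 of 4 (0.068, SE 0.12), and the share of all probes that were so was not counted. None of the 3 passed in limma. For the 3 measured cardiomyocyte markers of 20 the summed level also overlapped, between 7.02 and 7.36 over all groups. It mostly follows TPM1 and MB (mean levels 6.21 and 5.97, against 1.53 for MYH7). MYH7 had estimates of -0.702 with losartan and 0.614 with angiotensin II (SE 0.345 each), and its difference was 1.32 (limma adjusted p = 0.183). MB had 0.066 and -0.181 (SE 0.105 each) and was lower in 4 of 4 sets with angiotensin II. TPM1 had -0.072 and -0.058 (SE 0.0925 each). None of these 3 passed in limma. The 2 measured leukocyte markers of 10, CD14 and CD3E, were near background (well above it on 10 and 13 of 16 arrays), with a summed level of -2.53 to -1.61. No atrial marker of the 4 was found on the array under its name. The part of the cell type markers in the FGF1 values was not tested.

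FGF1 kept its sign in every alternative that was run: 23 of 23 with losartan, where the estimate ranged from 0.34 to 0.53, and 23 of 23 with angiotensin II, where it ranged from -0.62 to -0.36. Many of these could not change the sign. The ratios of each arm all shared a sign when the gene was chosen, so leaving out twin sets keeps it. Changes of the probe filter, the prior or the twin block leave the FGF1 estimate as it was. Nothing is therefore read from these counts. In the authors' deposited values, read as natural logs and converted to log2, the estimates were 0.39 (SE 0.094) and -0.41 (SE 0.094). Those of AGGF1 ranged from -0.35 to 0.12 and from -0.041 to 0.22.

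**Figure D5:**
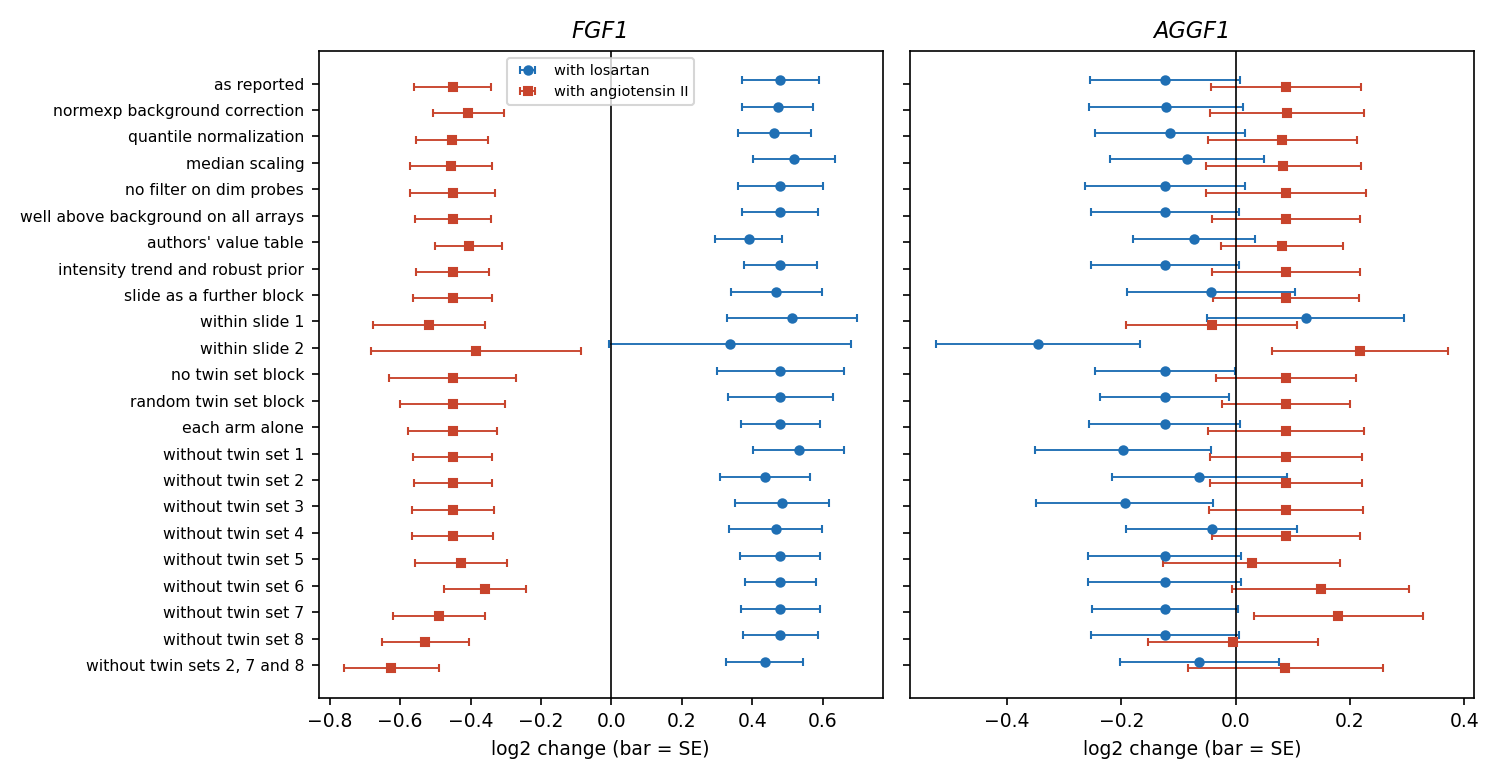
Estimated log2 change of FGF1 and AGGF1 (probe from base 674) with losartan (blue circles) and angiotensin II (red squares) as reported and under the other ways of processing, with bars of 1 SE. The FGF1 estimates stay on 1 side of 0 for each treatment, and those of AGGF1 lie near 0 and cross it within slide 1 and, for angiotensin II, without twin set 8.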

How the data were processed

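Each fetus was assayed on 1 Agilent sheep array with Cy5-labelled RNA. The authors deposited scanner files with spot intensities from Agilent Feature Extraction 10.7.3.1, background-subtracted and detrended within the array, per the file headers, and a table whose values match the natural log of the mean signal per array, made nearly equal in distribution by the authors with a method not given in the sources used here (column medians 5.76 to 5.77). Genome build was not given, so no coordinates are printed. Spots of a probe were averaged after leaving out flagged outliers, and log2 values were set relative to the 75th percentile of each array (1099 to 1670 intensity units). Testing was limited to the 8970 probes of 15008 that Feature Extraction called well above background on all 4 arrays of some group (8601 to 9615 had that call per array). Names came from the files or from RefSeq's gene table of assembly ARS-UI_Ramb_v3.0 and covered 756 tested probes, for 522 genes. limma 3.58.1 in R 4.3.3 was fitted to all 16 arrays with the twin set as a block and 1 term per treatment (6 residual degrees of freedom), and without block to the 8 untreated arrays. p-values are two-sided and Benjamini-Hochberg adjusted over all tested probes. The twin sets come from the labels, and their pairing was checked: deviations of twins from the group means correlated at 0.239 to 0.533 in the 4 sets whose twins shared a slide and at -0.039 to 0.221 in the other 4, so the check does not separate the twin pair from the slide. Nothing in the labels says more of the fetuses' independence than their twin set. The fit was tested on simulated data.

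The members and the gene lists were chosen with earlier results of these data known. Named were both members, all tested FGF ligands and receptors, up to 4 genes of each other list with the smallest unadjusted p in a contrast, and the 3 genes most and the 2 least like each member, of which 1 is not reported here. The probe with the highest mean level stood for a gene. Alternatives changed the background correction, scaling, filter, slide, block, prior and twin sets.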

Additional observations from a re-analysis of the deposited data

Results flagged for a closer look

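FGF1 moved in opposite directions under the treatments, higher than in the untreated twin in all 4 sets with losartan and lower in all 4 with angiotensin II. The difference of the estimates was -0.93 on the log2 scale, and it was not tested, because the gene was chosen with these values known.

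FGF1 in the angiotensin II group had 1 array far from the other 3: set 8 at 1.99 against 1.27 to 1.29, a gap of 0.965 of the range of the group, above Dixon's critical value for 4 samples. The untreated twin of set 8 was also the highest of its group, at 2.21, and the twin ratio of the set, -0.22, was not far from the others. The angiotensin II array of set 8 is 1 of the 3 arrays that stood apart on the first principal component. Of the 18 sets of 4 values checked in this way for the 3 probes, this was the 1 that passed, and chance flags about 1 in 20.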

How the results depend on the processing

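The estimates of FGF1 kept their sign in all alternatives, though many of these could not change it. Of the estimates, 1 moved by more than the SD of the twin ratios: 0.34 with losartan within slide 2. The difference of the AGGF1 effects turned to -0.16 (SE 0.23) within slide 1. The gap of FGF1 between the untreated twins ranged from 0.20 to 0.41. Without the twin block the FGF1 estimates were 0.48 and -0.45 (SE 0.18 each), and with a random block they were the same (SE 0.15 each). The counts over all probes varied widely. With losartan 109 became 57 with only probes well above background on all arrays, 434 in the authors' deposited values, 71 with the slide as a further block, 42 and 546 within slides 1 and 2, 0 without the twin block, 68 with a random block and 34 with each arm fitted alone. For the difference 148 became 98, 1734, 427, 38 and 1880 in the first 5 of these, 3 without the twin block and 75 without sets 2, 7 and 8. With angiotensin II 0 became 353 within slide 2 and 1 without sets 2, 7 and 8. Between the untreated twins 0 became 227 within slide 2 and 1 without sets 2, 7 and 8. The counts within slide 2 involve the 3 arrays that stood apart, which are its only untreated array of the losartan arm and both its angiotensin II arrays. Leaving out 1 twin set gave 33 to 99 probes with losartan, 48 to 109 in the difference, 0 with angiotensin II in each case and 0 to 1 between the untreated twins. The cause was not tested. Of 1209 values of the other list genes under alternatives, 19 passed the threshold where the reported one did not, among them FGF7 with losartan in the authors' deposited values (0.41, limma adjusted p = 0.0277) and FGF18 with losartan without set 3 (-1.12, adjusted p = 0.0383), and the others kept their call. Each arm alone and the twin block could not be applied to the untreated comparison.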
